A study of Triticum aestivum with 20 samples.

Results

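Accessible sites that lay directly against active chromatin were examined in leaf of winter wheat and followed into vernalized leaf. The chromatin had been divided by the authors into 9 states with a hidden Markov model, and state E7 carries chromatin accessibility without any of the 4 histone modifications measured. The sites were chosen by the leaf states alone, as uninterrupted runs of E7 with a run of E1, E2 or E6 touching them on at least one side. Of the 151484 E7 runs of leaf, 62619 met this rule, which is 41.3% of the runs and 42.9% of the E7 bases, or 20.6 Mb. The remaining runs were mostly isolated, with the unmarked state E9 on both sides (84317 runs), and 4548 runs touched repressed or mixed chromatin without touching an active state. With 1 bin of E9 allowed between the E7 run and the active run, 68777 runs would have been taken. State E1 carries accessibility together with H3K27ac, H3K36me3 and H3K4me3, E2 carries mainly H3K36me3, and E6 carries accessibility with some H3K27ac. These readings follow the row order of the states in the study and could not be checked from the files. No gene annotation was used for the genome build of the files, IWGSC RefSeq v1.0, so the neighbouring chromatin is named by its states and not by genes, and no gene is assigned to a site.

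Accessible chromatin is DNA that a transposase can reach because nucleosomes are absent or loosely placed, and in plants it is found mostly at promoters and at distal regulatory elements. H3K4me3 and H3K27ac are known for the start of transcribed genes, where they flank the open promoter, while H3K36me3 is laid down along the body of genes during transcription. H3K27me3, the mark of Polycomb repression, is known in cereals for holding flowering genes such as VRN1 silent before cold.

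The plants were bread wheat of the winter cultivar AK58. Leaf was taken from seedlings grown for about a fortnight in warm long days without cold, and vernalized leaf from plants that had then spent a month in a cold chamber with long days and a day back in the greenhouse. Age, cold and return to warmth therefore differ together between the conditions and cannot be told apart. Each condition had 10 ChIP-seq libraries in the labels, with 2 replicates for each of 4 marks and for the input. Accessibility, which defines E7, came from ATAC-seq per the study's methods, and its libraries are not among these. The libraries were reduced to 1 segmentation per condition, so no spread between plants can be given and comparisons between the conditions carry no test. The segmentations covered 21 chromosomes and 14066 Mb in bins of 200 bp and hold no read numbers. The study lists more accessibility reads for each vernalized leaf library than for either leaf library, and the part of read depth in the results was not tested.

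The states on the sides of the accessible sites were unevenly distributed. This is a description, since these states chose the sites. The most frequent arrangement was E1 on one side and E9 on the other, with 28396 sites or 45.3%. E2 on one side and E9 on the other followed with 17129 sites or 27.4%, and E6 with E9 was found at 4158 sites or 6.64%. Counted by the active states touched, 32693 sites touched E1 only, 19194 touched E2 only and 4345 touched E6 only. A further 4381 sites lay between E1 and E2, 1389 between E2 and E6, and 617 between E1 and E6. Active chromatin stood on both sides of 11382 sites, or 18.2%. It was the same state on both sides at 4995 sites, or 7.98%, of which 3411 had E1, 1583 had E2 and 1 had E6. At 1554 sites, or 2.48%, the side without active chromatin was repressed or mixed, and these include all sites with H3K27me3 chromatin (E5) on that side.

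**Figure D1:**
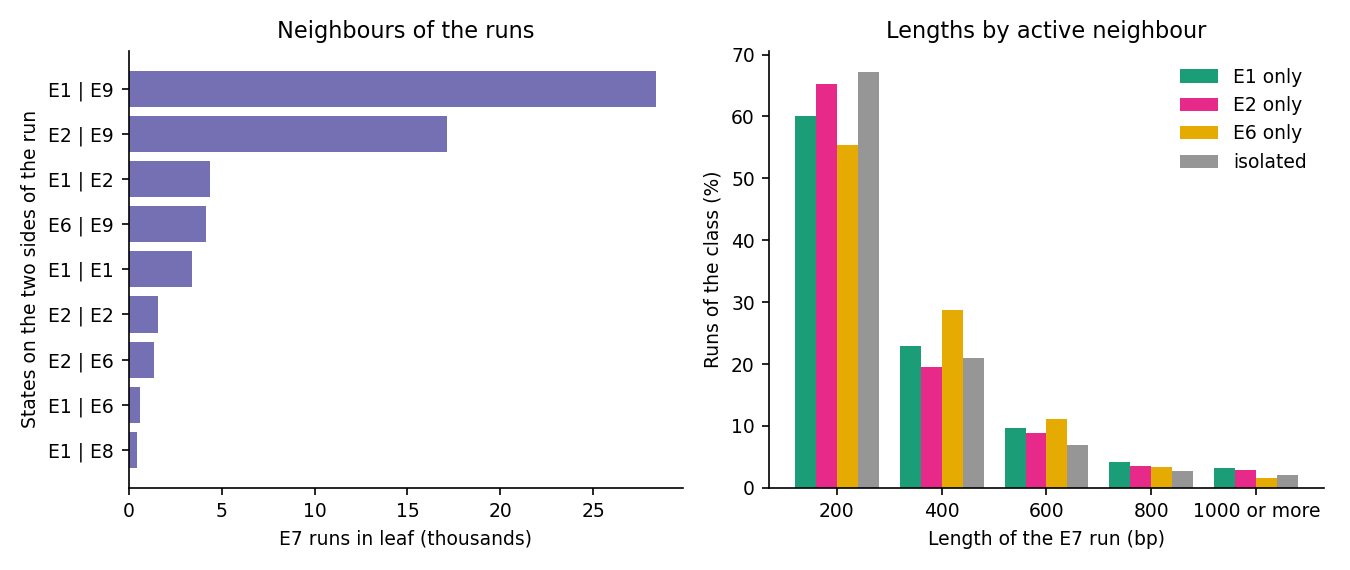
Left, number of leaf E7 runs for the 9 most frequent pairs of states on their sides. Right, share of runs (%) at each length in bp for runs touching E1 only, E2 only or E6 only and for isolated runs. E1 with E9 is the most frequent pair with 28396 runs, and runs of 200 bp are the largest length class in each of the 4 groups, from 55.3% beside E6 to 67.2% of isolated runs.

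The sites were short. Of all sites, 62.5% were a single bin of 200 bp, 21.8% were 400 bp and 2.82% were 1000 bp or longer, with a mean of 328.6 bp and a longest run of 2800 bp. Sites beside E1 only averaged 339.3 bp, those beside E2 only 321.8 bp and those beside E6 only 335.5 bp. Sites wedged between E2 and E6 were the shortest, with a mean of 219.9 bp and 93.0% of them a single bin. Isolated runs averaged 306.8 bp and 67.2% were a single bin, so both kinds of site lie close to the resolution of the segmentation.

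Most sites stood at the end of an active block, that is, of an uninterrupted stretch of E1, E2, E6 and E7. There were 51533 blocks with at least 1 site, and 81.2% of them held 1 site, 16.4% held 2 and 2.37% held 3 or more, with at most 6. A block was shared with another site by 20757 sites, or 33.1%, and such sites are not independent of each other. At 51237 sites, or 81.8%, the site formed an end of its block. By construction these are the sites with active chromatin on 1 side only. The order E2, E7 was the most frequent with 12001 blocks and a median block length of 800 bp. The order E2, E1, E7, with H3K36me3 chromatin leading through E1 to an accessible end, was found in 10829 blocks with a median length of 2400 bp. The order E1, E7 without any E2 was found in 3171 blocks. Since reading direction is not known here, an order and its mirror image were counted together.

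Where E1 and E2 adjoined, accessible runs stood more often next to the E1 run, which describes the leaf states that chose the sites. Among the 48560 E1 runs of leaf with E2 on one side, the other side was E7 in 26954 runs, or 55.5%, E9 in 33.5% and E6 in 8.99%. Among the 60438 E2 runs with E1 on one side, the other side was E7 in 8.34% and E9 in 85.8%. Across all runs, 42.5% of 88086 E1 runs, 35.0% of 15941 E6 runs and 13.7% of 187934 E2 runs touched an E7 run. The E2 runs that touched an accessible site had a mean length of 1123 bp, against 1534 bp for those that did not. For E1 the means were 455.0 bp and 454.3 bp.

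The first question was what became of the sites in vernalized leaf. Of the 62619 sites, 11831 kept at least 1 bin of E7, a share of 18.9% (95% Wilson interval 18.6% to 19.2%, counting error over runs only). Over all leaf E7 runs, which include the sites, this share was 15.7%. A further 25471 sites, or 40.7%, held no E7 but at least 1 bin of E1, E2 or E6, against 24.7% of all leaf E7 runs. Another 24150 sites, or 38.6%, were wholly E9, against 57.4% of all leaf E7 runs, and the remaining 1167 sites, or 1.86%, held only repressed or mixed chromatin, with or without E9, against 2.19% of all leaf E7 runs. Any E6 was found in 21.2% of the sites, against 12.5% of all E7 runs, any E2 in 20.8%, against 13.7%, and any E1 in 4.22%, against 2.02%. These states are rare in the genome of vernalized leaf, where E7 took 0.459% of the bases, E6 0.181%, E2 1.95% and E1 0.205%. Over the genome E6 covered 2.00 times and E7 1.34 times its leaf length in vernalized leaf, and E1 0.719 times.

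The sites beside active chromatin were compared with the isolated runs in their fate. The rule used the leaf states on the sides and not the fate. The differences within the 7 homoeologous chromosome groups were put to a two-sided exact permutation of their signs, which allows no p-value under 0.0156, and p-values were adjusted over 12 comparisons by the Benjamini-Hochberg method. The test treats chromosomes as units within 1 pair of segmentations and does not measure the spread between plants. E7 was kept at 18.9% of the sites and at 13.4% of the isolated runs, a mean difference over groups of 5.47 ± 0.364 percentage points (SD, n = 7), positive throughout the 7 (exact permutation p of 0.0156, adjusted 0.0268). Wholly unmodified chromatin was reached by 38.6% of the sites and 71.8% of the isolated runs. This difference was -33.1 ± 1.37 percentage points (SD, n = 7), negative in 7 of 7 groups, with the same exact permutation p of 0.0156 and adjusted p of 0.0268. By definition the isolated runs had E9 on both sides in leaf and the sites had it on 1 side at most. The test therefore cannot separate the fate of a run from the state of its flanks. Active chromatin without E7 was held by 13.4% of the isolated runs and 40.7% of the sites. With any 1 group left out, no p-value under 0.0312 can be had, and the adjusted p-values of the 7 comparisons that passed the threshold here and below lay between 0.0417 and 0.0536.

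**Figure D2:**
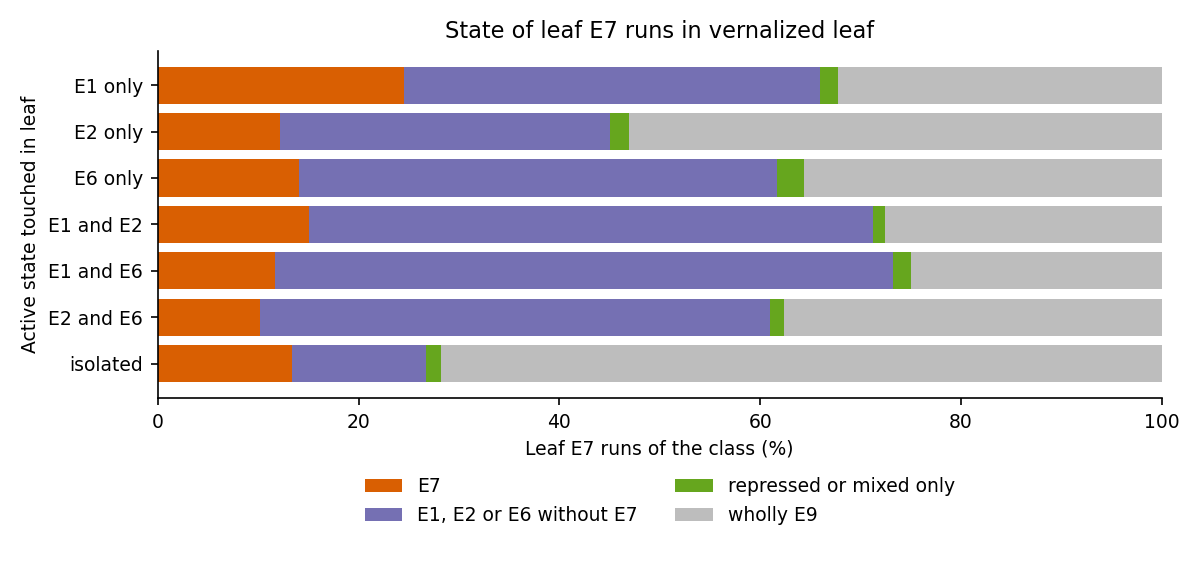
Share of leaf E7 runs (%) by what they held in vernalized leaf, for the active states touched in leaf and for isolated runs. Each run is counted once, first by any E7, then by any E1, E2 or E6, then by repressed or mixed chromatin, and otherwise as wholly E9. The share wholly E9 is 32.2% beside E1 only, 53.0% beside E2 only and 71.8% of isolated runs.

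The kept shares drew together up to 600 bp, and from 800 bp on that of the isolated runs was the higher. Among runs of 200 bp, E7 was kept at 15.1% of the sites and 9.64% of the isolated runs. At 600 bp the shares were 26.1% and 25.7%. At 1000 bp or more they were 33.9% of 1765 sites and 38.9% of 1810 isolated runs. Since 1 bin of E7 is enough, a run of more bins is more readily called kept and less readily wholly E9. As a share of bases, E7 took 15.1% of the sites of 200 bp and 19.1% of those of 1000 bp or more. For isolated runs these shares of bases were 9.64% and 22.4%. With runs of at least 800 bp only, the mean difference was -2.98 percentage points, with a negative sign in 6 of the 7 (exact permutation p of 0.0312, adjusted 0.0536). For the pooled sites the kept share was thus above that of isolated runs over all runs and among those of 200 and 400 bp. It was not higher among those of 800 bp or more. The excess did not hold for each active state touched. At 200 bp the kept share was 20.9% beside E1 only, 10.5% beside E6 only and 7.95% beside E2 only, the last below the isolated runs. At 400 bp it was 16.7% beside E2 only and 16.3% of isolated runs. Over all lengths it was 12.2% beside E2 only and 13.4% of isolated runs. When the isolated runs were weighted to the lengths of the sites, their kept share was 14.2%. Wholly unmodified chromatin was more frequent among isolated runs at each of the 5 lengths compared, with 21.9% against 13.0% at 1000 bp or more.

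**Figure D3:**
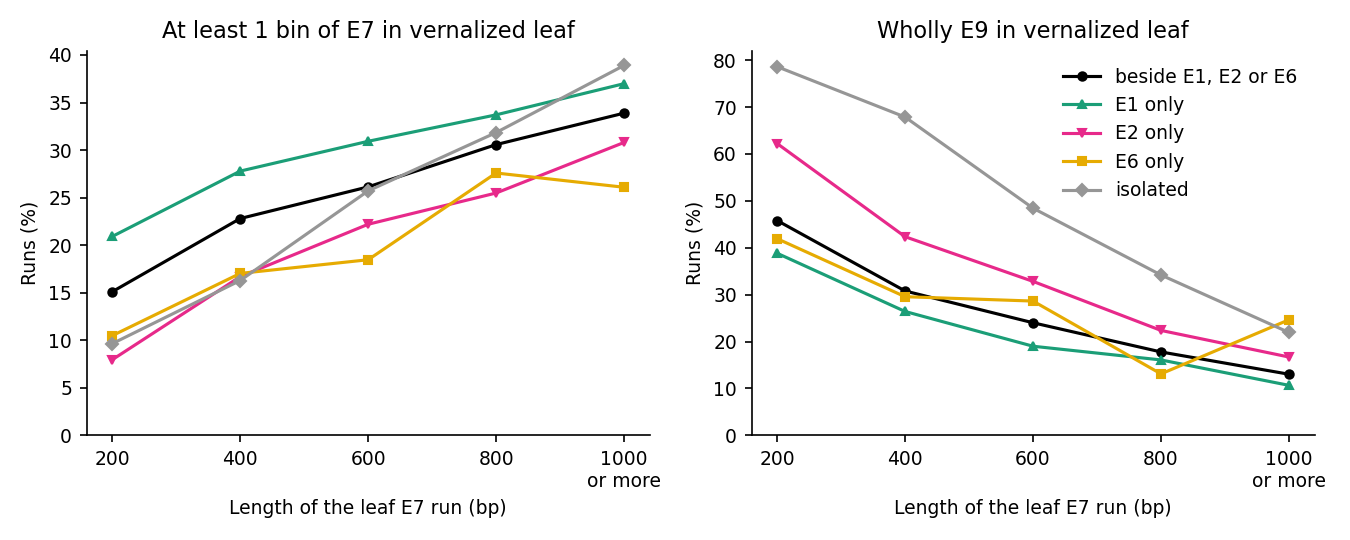
Share of leaf E7 runs (%) with at least 1 bin of E7 (left) and wholly E9 (right) in vernalized leaf, by length of the leaf run in bp, for all sites beside active chromatin, for those touching E1 only, E2 only or E6 only, and for isolated runs. The kept share of isolated runs rises from 9.64% at 200 bp to 38.9% at 1000 bp or more and passes that of the sites, which rises from 15.1% to 33.9%. A run of more bins is more readily called kept and less readily wholly E9.

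The fate differed with the active state touched. E7 was kept at 8009 of the 32693 sites beside E1 only, or 24.5%, at 12.2% beside E2 only and at 14.1% beside E6 only. E1 exceeded E2 by 12.4 ± 1.49 percentage points and E6 by 10.5 ± 1.34 (SD, n = 7). Both differences had this sign in 7 of 7 groups, with an exact permutation p of 0.0156 and an adjusted p of 0.0268. The difference of E2 minus E6, -1.90 ± 1.97 percentage points, did not pass the threshold (exact permutation p = 0.0625, adjusted p = 0.0833, negative in 6 of 7 groups), and it was 1.53 among runs of at least 400 bp. Sites beside E2 only were wholly E9 at 53.0%, those beside E6 only at 35.7% and those beside E1 only at 32.2%. Any E6 was found in 32.5% of the sites beside E6 only, in 23.1% beside E1 only and in 12.8% beside E2 only. Any E1 was found in 5.73%, 2.18% and 0.690% of the sites beside E1, E2 and E6 only. E7 was kept at 26.4% of the sites with E1 on one side and E9 on the other. With E1 on both sides it was kept at 11.7%. For E2 these shares were 12.4% and 8.84%. Isolated runs kept E7 at 13.4%, above the share beside E2 only and below those beside E1 only and E6 only.

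Sites with active chromatin on both sides kept E7 less often, at 12.4% against 20.3% of those with it on one side. The mean difference was -7.92 ± 0.685 percentage points (SD, n = 7), negative throughout the 7 (exact permutation p of 0.0156, adjusted 0.0268). These groups differ by definition in their flanks, so the test cannot separate the fate of a run from the state of its flanks. Sites with active chromatin on both sides were also less often wholly E9, at 28.4% against 40.8%, a difference that was not tested. At 57.8% of them E1, E2 or E6 was found without E7. This share was 67.4% where E1 stood on both sides, 46.2% where E2 did, and 56.2% between E1 and E2. Where the other side was repressed or mixed, 19.6% of the 1554 sites held only repressed or mixed chromatin in vernalized leaf. This share was 2.19% over all leaf E7 runs and 20.6% over the 4548 E7 runs that touched repressed or mixed chromatin and no active state.

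The kept share also varied with the order of states in the whole block, as a description without test. In the order E2, E1, E7, 29.8% of the sites kept E7 and 35.2% became wholly E9. In the order E2, E7 the shares were 12.4% and 58.7%. With 1 more pair of E2 and E1 runs, in the order E2, E1, E2, E1, E7, the kept share was 31.6% over 2491 sites. In the order E2, E6, E7 it was 12.4%, and any E6 was found in 32.4% of these sites. Among blocks with an E7 run at each end, the kept share was 19.7% over 2700 sites in the order E7, E1, E7 and 24.3% over 1402 sites in the order E7, E1, E2, E1, E7. It was 17.8% in the order E7, E1, E2, E7 and 19.0% in the order E7, E6, E7.

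The kept share varied with the length of the touched run, over a wider range beside E1 than beside E2. Among sites with E9 on the other side, those touching an E1 run of 200 bp kept E7 at 23.7%, those touching one of 600 to 1000 bp at 30.1% and those touching one of 2200 bp or more at 17.3%. The share with any E6 in vernalized leaf was 18.7%, 23.6% and 53.7% in these groups, of which the last held 255 sites. Beside E2 the kept share lay between 11.0% and 15.4% in the 5 length groups of the touched run, and the share wholly E9 was 60.5% beside runs of 200 bp and 43.9% beside runs of 2200 bp or more.

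The active neighbours changed state as well. Of the 41102 contacts with an E1 run, the run held E1, E2 or E6 in vernalized leaf at 81.3% and E1 itself at 44.9%. For 26547 contacts with E2 these shares were 56.0% and 49.2%, and for 6352 contacts with E6 they were 67.3% and 50.8%. Where the E1 neighbour held no E1, E2 or E6 in vernalized leaf, the site was wholly E9 at 58.7% of the contacts. Where it held any of them, this share was 24.1%. Beside E2 the shares were 67.7% and 31.5%, and beside E6 they were 62.7% and 21.6%. E7 itself was kept at 24.3% of the contacts whose E1 neighbour held none of these states and at 21.8% of those where it held any. Beside E2 these shares were 16.5% and 9.12%, and beside E6 they were 25.2% and 7.04%. A neighbour that had become E7 counts here as holding none, so an E7 run that spread over its neighbour falls in that group. The neighbour's bin next to the site was E7 at 7.31% of the E1 contacts, 5.02% of the E2 contacts and 12.0% of the E6 contacts. Sites with active chromatin on both sides enter once per contact.

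Where E7 was kept, the extent of the run was compared. Among the 11800 kept sites that met a single E7 run of vernalized leaf, 32.2% had the same start and the same end, 43.8% met a longer run and 20.2% a shorter one. The mean length was 384.4 bp in leaf and 581.8 bp in vernalized leaf. Kept isolated runs had the same start and end in 17.8%, met a longer run in 59.3% and went from a mean of 402.8 bp to 782.7 bp, so a longer run in vernalized leaf was not particular to the sites. Longer runs are also more readily met by a leaf run. Over the genome, vernalized leaf had 0.929 times the E7 runs of leaf and 1.34 times the E7 length. The run of vernalized leaf again touched active chromatin in 74.0% of the kept sites. This was so for 84.6% of those beside E1 only, 47.0% beside E2 only and 36.3% beside E6 only. Of the 50788 sites without E7, 4.74% had an E7 run of vernalized leaf less than 200 bp away and 14.2% less than 1000 bp away. For isolated runs without E7 these shares were 4.01% and 13.9%. The median distance was 6400 bp for the sites and 8600 bp for the isolated runs.

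The rule was also applied to vernalized leaf, where it found 21968 runs of 140722, or 15.6%, which is 0.351 times their number in leaf. The isolated runs numbered 1.39 times those of leaf. Runs beside E6 only had a ratio of 1.03, although E6 runs themselves numbered 15941 in leaf and 48117 in vernalized leaf, and the share of E6 runs that touched E7 was 35.0% and 9.48%. Those beside E1 only had a ratio of 0.388 and those beside E2 only one of 0.238. Runs between E1 and E2 fell from 4381 to 77. On the E1 runs with E2 on one side, the other side was E7 in 32.4% of 31513 runs in vernalized leaf and E6 in 32.4%, where leaf had 55.5% and 8.99%, while E9 stood there in 34.3% and 33.5%. Of the 21968 runs, 46.0% held E7 in leaf and 25.8% had been wholly E9. Whether 1 model or 1 per condition was trained is not known, so an equal number need not mean an equal definition of a state.

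Along the chromosomes the sites were densest toward the ends. With each chromosome divided into 20 blocks of equal length, the density was 5.80 sites per Mb in the first block, 2.13 in the seventh and 7.51 in the last. Isolated runs had 6.88, 3.78 and 10.1 per Mb in these blocks, so this profile was not particular to the sites. Sites made up between 34.1% and 44.7% of the E7 runs of a block, lowest in the eighth. The kept share was highest in the eighth block, at 26.7%, and lowest in the seventeenth, at 16.8%. For isolated runs it ranged from 10.8% to 16.5%, and the sites lay above them in each of the 20 blocks, by 12.1 percentage points in the eighth and by 2.13 in the first. The total E7 length of vernalized leaf relative to leaf was likewise highest in the eighth block and lowest in the first. It was 2.52 at the eighth block against 0.868 at the first, and its part in the kept share was not tested.

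**Figure D4:**
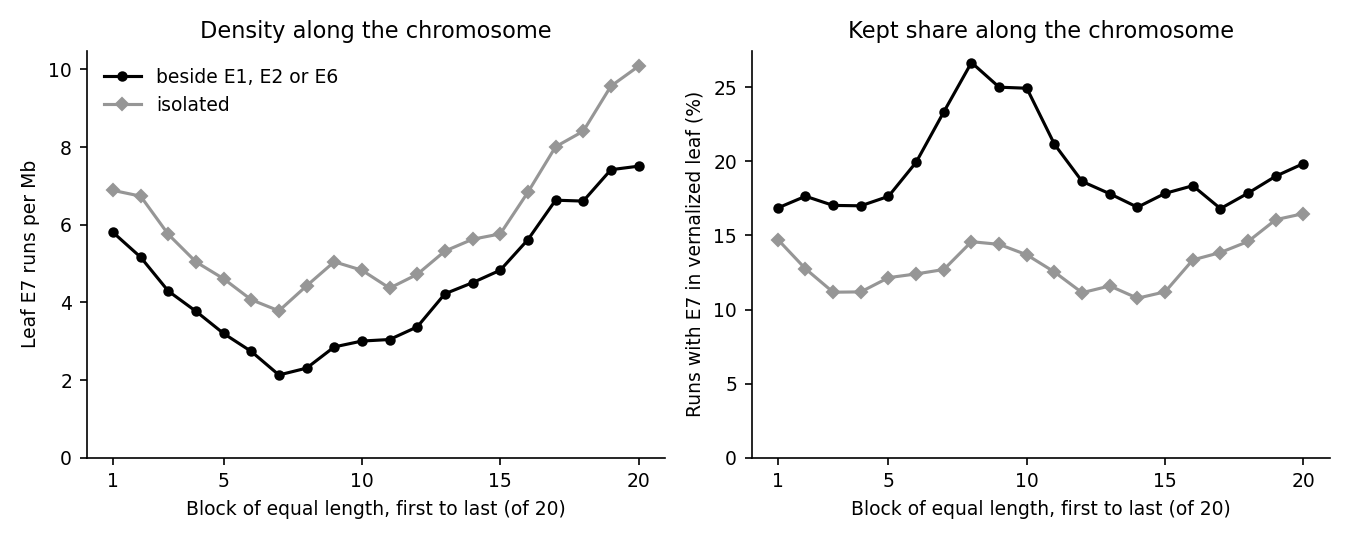
Leaf E7 runs per Mb (left) and share of them with E7 in vernalized leaf in % (right) in 20 blocks of equal length from the first to the last end of the chromosome, summed over 21 chromosomes, for sites beside active chromatin and isolated runs. The density of sites is lowest at 2.13 per Mb in block 7, where that of isolated runs is lowest too at 3.78. The kept share of the sites is highest at 26.7% in block 8.

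Neighbouring sites were a median of 57600 bp apart, and 10.6% of the gaps were 1000 bp or less. Of 14075 windows of 1 Mb, 1905 held no site. The window with the most sites lay on chromosome 2D from 650000001 to 651000000 and held 39.

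Sub-genome D carried the most sites per Mb. The density was 5.48 ± 0.562 sites per Mb on D (SD, n = 7 chromosomes), 4.30 ± 0.581 on A and 3.82 ± 0.434 on B. A minus D was -1.18 ± 0.191 and B minus D -1.66 ± 0.664 sites per Mb (SD of the differences, n = 7). Both were negative in 7 of 7 groups, with an exact permutation p of 0.0156 and an adjusted p of 0.0268. A minus B was 0.480 ± 0.713 and did not pass the threshold (exact permutation p = 0.0938, adjusted p = 0.102). With the first 240 Mb of 1B left out, A minus B was 0.248 and B minus D -1.43 sites per Mb. The latter stayed negative in 7 of 7 groups. In numbers the sub-genomes lay closer, with 21191 sites on A, 19782 on B and 21646 on D. Per Mb of E1, E2 and E6 chromatin D had 192.9 ± 11.0 sites, A 190.3 ± 13.9 and B 184.2 ± 8.81 (SD, n = 7 chromosomes), and no pair passed the threshold on that scale. As a share of all E7 runs, A had 43.0%, D 41.1% and B 40.5%. The order of A and D turned on this scale, with A minus D at 1.91 ± 3.10 percentage points (SD, n = 7), and no pair passed the threshold.

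Sites of A kept E7 at 19.5% ± 0.869, those of B at 19.2% ± 0.728 and those of D at 18.1% ± 1.28 (SD, n = 7 chromosomes). None of the 3 differences passed the threshold, with exact permutation p-values of 0.484 for A minus B, 0.0938 for A minus D and 0.0469 for B minus D and adjusted p-values of 0.484, 0.102 and 0.0703. By chromosome this share was lowest on 3D with 16.5% and highest on 7A with 20.5%, and it exceeded that of isolated runs on 21 of 21 chromosomes. The density ranged from 3.10 sites per Mb on 1B, with its first 240 Mb counted, to 6.21 on 5D.

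**Figure D5:**
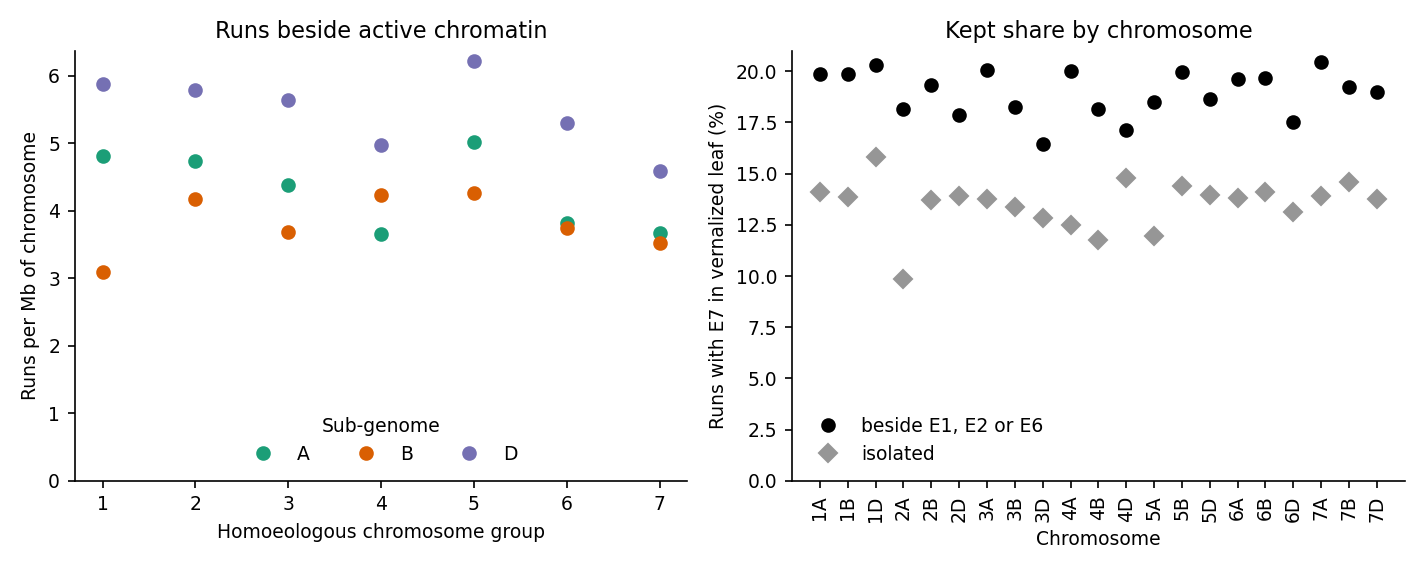
Left, sites beside active chromatin per Mb of chromosome for the 7 homoeologous groups, coloured by sub-genome. Right, share of leaf E7 runs with E7 in vernalized leaf (%) on each of 21 chromosomes for sites and isolated runs. The D chromosome is highest in each of the 7 groups on the left, and on the right every site value, from 16.5% to 20.5%, lies above the isolated value of its chromosome.

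Single regions show the arrangements. Positions refer to IWGSC RefSeq v1.0, the first base being 1. The longest site with E1 on one side and E9 on the other lay on chromosome 2A from 410876801 to 410879600, was 2800 bp long and was 85.7% E6 and 14.3% E2 in vernalized leaf. The longest with E1 on both sides lay on chromosome 4B from 620059001 to 620061000, was 2000 bp long and became E6 over 70% of its length and E9 over the rest. In neither was any E7 kept. The longest site with E2 and E9 on its sides lay on chromosome 4D from 498397801 to 498399800 and was 2000 bp long, and 70% of it was E9 in vernalized leaf. Of 3 sites of 1200 bp with E2 on both sides, the first lay on chromosome 3A from 737435001 to 737436200 and was E2 and E9 in equal parts. The longest with E6 and E9 measured 1800 bp, lay on chromosome 5D from 272666401 to 272668200 and became wholly E9. The only site with E6 on both sides was a single bin on chromosome 6B from 288648601 to 288648800, and it too was E9.

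By fate, the longest site that stayed E7 over its whole length, first of 3 of equal length, was 1600 bp long and lay between E9 and E1 on chromosome 2A from 553276601 to 553278200. The longest that became wholly E6, also first of 3, was 1800 bp long and lay between E9 and E2 on chromosome 1A from 517480001 to 517481800. A site of 1600 bp between E9 and E2 on chromosome 1B from 254453801 to 254455400 became wholly E1. Another of 1600 bp between 2 E1 runs on chromosome 3D from 82097601 to 82099200 became wholly E2, the first of 2 of that length. The longest that became wholly E9 was 2000 bp long and lay between E1 and E9 on chromosome 4A from 379465601 to 379467600. None of these regions could be checked in replicates.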

How the data were processed

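Per the study's methods, the authors filtered reads with fastp (0.21.0 per the labels), mapped them with Bowtie2 (2.3.5.1 per the labels) on IWGSC RefSeq v1.0, removed duplicates and gave peaks of the 4 marks and of accessibility to ChromHMM. What the authors deposited is 1 file per condition that names a state from E1 to E9 for every segment, with no counts or scores, and how replicates were combined is not stated. Depth per library was not used here, and fewer peaks can be called in shallower libraries. Segments were read in groups of 4 fields, checked to tile each chromosome without gap, and neighbours of the same state were merged. E7 runs touching E1, E2 or E6 were taken, and a run was called kept with at least 1 bin of E7 in vernalized leaf.

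Shares were compared over 7 homoeologous groups (A, B and D summed) with an exact permutation of signs over 128 patterns, and adjusted by Benjamini-Hochberg over 12 comparisons at a threshold of 0.05. Alternatives were other definitions of a neighbour and of kept, minimum lengths, weighting by length and each group left out. For density the first 240 Mb of 1B were also left out. The rule for named regions was the longest run of each arrangement and fate, the fullest window and the highest and lowest chromosome. Sites, rule and tests were chosen with earlier results of these data known. Functions were tested on simulated data. Python 3.11.15, numpy 2.4.6, scipy 1.17.1, pandas 2.3.3 and matplotlib 3.10.9 were used.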

Additional observations from a re-analysis of the deposited data

How the results depend on the processing

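No paired analysis was possible because replicate libraries had been merged into 1 list of states per condition. Runs of at least 800 bp, weighting by position, E9 on the other side only and the rule in vernalized leaf were alternatives chosen after seeing the data. Intervals treat runs as independent, and sites of a single bin lie at the limit of resolution. Unless the construction shows it, the cause of a change was not tested.

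The number of sites was 23492 with runs of at least 400 bp and 21968 in vernalized leaf. The kept share was 17.4% with at least as many E7 bases as other bases in a run, 17.0% of bases, 22.7% with E7 within 200 bp, 42.5% with E1, E6 or E7 counted and 25.2% for runs of at least 400 bp. The kept difference to isolated runs was -2.98 percentage points for runs of at least 800 bp, and E2 minus E6 was 1.53 for runs of at least 400 bp. Per Mb of active chromatin, A minus D was -2.59 and B minus D -8.73 sites. As a share of E7 runs they were 1.91 and -0.604 percentage points. The kept share of A minus B was -0.110 as a share of bases and -0.951 for runs of at least 400 bp.

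With 1 chromosome group left out, 6 groups remained, which allow no p-value under 0.0312. The 7 comparisons past the threshold kept their direction, and their adjusted p-values were 0.0469 without group 1, 0.0417 without group 4 and 0.0536 without any of the others. The kept share ranged from 18.7% to 19.0%. The difference to isolated runs ranged from 5.36 to 5.56 points for E7 and from -33.5 to -32.9 for wholly E9. The kept difference ranged from 12.0 to 12.7 for E1 minus E2, 10.2 to 10.8 for E1 minus E6, -2.32 to -1.49 for E2 minus E6 and -8.12 to -7.75 for both sides minus one side. Per Mb it ranged from -1.23 to -1.13 for A minus D, -1.82 to -1.48 for B minus D and 0.275 to 0.657 for A minus B. The kept share of B minus D ranged from 0.895 to 1.33, that of A minus D from 1.03 to 1.70 and that of A minus B from 0.0644 to 0.615. Past the threshold came B minus D in kept share without group 1, with 1.33, and without group 4 E2 minus E6 with -2.32 and A minus B per Mb with 0.657.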
